A study of Mus musculus with 4 samples.

Results

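Exhausted-like CD8 T cells marked by Pdcd1 and Tox were picked out of the immune cells of mouse melanomas and compared across 4 antibody treatments. A cell was taken when its raw unique molecular identifiers (UMIs, each 1 captured RNA molecule) held at least 1 of Cd3d, Cd3e or Cd3g, at least 1 of Cd8a or Cd8b1, at least 1 of Pdcd1 and at least 1 of Tox. Cells with any Cd4, Foxp3, Gzmk or Tcf7 UMI were left out, as were cells with 3 or more UMIs of Mki67 and Top2a or 3 or more of Gzmc, Gzmd, Gzme, Gzmf and Gzmg. The cells were thus chosen by these measured UMI counts, and none of the genes named so far is a result. These conditions gave 840 cells, 3.24% of the 25954 cells kept in the series and 12.4% of the 6760 cells that passed the CD3, CD8, Cd4 and Foxp3 conditions, called CD8 T cells below. They are called exhausted-like cells in the text and gated cells in the plots, and they numbered 242 in the IgG library, 201 in anti-PD-1, 201 in anti-PSGL-1 and 196 in the combination.

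B16-GP33 melanoma cells, a mouse tumour line that carries a viral peptide seen by CD8 T cells, had been injected under the flank skin of C57BL/6 mice. The mice received 200 ug of control IgG, of anti-PD-1 or of anti-PSGL-1, or 200 ug of both antibodies, on days 8, 10 and 12, and tumours were taken on day 18. Live CD45.2+ cells were sorted from the digested tumours of each treatment group and sequenced on the 10x Chromium platform, with 1 library per treatment. The labels do not state the age of the mice or how many mice went into a library. No treatment difference could therefore be tested: ratios between libraries are given with exact 95% intervals that cover counting error only, and not the spread between mice.

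A CD8 T cell that meets its antigen for long, as in a growing tumour, passes into a state called exhaustion, in which it keeps inhibitory receptors on its surface and makes less of the cytokines of an acute response. Pdcd1 encodes PD-1, the receptor that dampens antigen receptor signalling when it binds its ligands, and Tox encodes a nuclear factor that sets up and maintains the exhausted state. Tcf7 marks the self-renewing progenitors of the exhausted lineage. The condition on Tcf7 removes cells with a captured Tcf7 UMI, and a cell that shows none may still express the gene. Selplg encodes PSGL-1, a selectin ligand on T cells that is also known to restrain their activation.

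Depth differed between the libraries. The kept cells had a median of 3760 UMIs in IgG, 6389.5 in anti-PD-1, 6374 in anti-PSGL-1 and 8543.5 in the combination, and the exhausted-like cells 5178, 7939, 7967 and 8263 in the same order. Their summed counts ranged from 1372543 to 1767134 UMIs, and all levels below are CPM, a gene's UMIs scaled to 1 common total per library. Between 25.4% and 32.8% of the exhausted-like cells held 3 or more UMIs of macrophage, dendritic, neutrophil or B cell markers. The summed level of the macrophage list ranged from 1418 to 1710 CPM, that of the dendritic list from 368 in the combination to 1194 in anti-PSGL-1, and that of the neutrophil list from 6.26 in the combination to 222 in IgG. The macrophage list holds Ly6c2 and the dendritic list holds Ccr7, at 229 CPM in anti-PSGL-1. T cells also express both genes, which differed between libraries as given below. Those sums are thus not of other-lineage RNA alone, and neither gene counted toward the other-lineage UMIs. Barcodes shared by libraries numbered 61 of 25893, and 0 exhausted-like cells shared a barcode with an exhausted-like cell of another library. Some ratios are also given without the cells that held other-lineage UMIs, or after every cell was thinned to 2000 UMIs. Thinned ratios, tests and shares of CD8 T cells apply the conditions anew to the thinned counts. They therefore cover a partly different set of cells as well as an equal depth. Thinned shares of cells with a UMI of a gene, and receptors per cell, use the exhausted-like cells chosen before thinning.

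Several markers of exhaustion that the conditions did not use were present, but they are not particular to these cells. Against CD8 T cells with Pdcd1, Tox and Gzmk UMIs, the log2 fold change was -0.05 for Lag3, -0.02 for Rgs16 and -0.0004 for Cxcr6. Tigit, another such marker, was near the floor at 8.77 to 21.1 CPM. Lag3, an inhibitory receptor related to CD4, stood at 340.2 CPM in the IgG library, 429.9 in anti-PD-1, 234 in anti-PSGL-1 and 413 in the combination. Rgs16, a brake on G protein signalling that marks exhausted T cells, stood at 404 CPM in the IgG library, 403 in anti-PD-1, 452 in anti-PSGL-1 and 378 in the combination. Cxcr6, a chemokine receptor of tumour-resident T cells, stood at 424 CPM in the IgG library, 579 in anti-PD-1, 483 in anti-PSGL-1 and 585 in the combination. With every cell thinned to 2000 UMIs, Lag3 was found in 32.7 to 56.7% of the exhausted-like cells against 0.262 to 0.765% of macrophages, whose median depth was 5185 to 8504.5 UMIs. Progenitor genes were low, with Il7r between 32.8 and 48.0 CPM and Slamf6 between 3.50 and 11.3 CPM, in cells chosen to lack Tcf7 UMIs. Il7r was lower still in the Gzmk-positive cells, at 9.67 to 19.9 CPM. The CD4 and regulatory T cell list summed to 56.2 to 70.7 CPM, the natural killer (NK) list to 387 to 478 CPM and the melanoma list to 23.9 to 31.7 CPM, with Tyr, Sox10 and Slc45a2 at 0 in all 4 libraries. S1pr5, a marker of circulating effector cells, was also at 0 in all 4. The effector list of 7 genes that holds it, with Gzmb and Prf1 among them, was not low. It summed to 1096 CPM in IgG and up to 2559 CPM in the combination.

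The values that selected the cells are given as a description. Pdcd1 (mm10, chromosome 1, 94038305 to 94052553, minus strand) had a median of 3 UMIs per exhausted-like cell in IgG, 5 in anti-PD-1, 4 in anti-PSGL-1 and 6 in the combination. Tox (chromosome 4, 6686353 to 6991557, minus strand) had a median of 2, 2, 2 and 2.5 UMIs. Many cells sat at the threshold: 25.6% of the IgG cells and 9.18 to 14.9% of the cells in the other libraries held a single Pdcd1 UMI. The 39 IgG cells with 1 UMI of each gene had 273 CPM of Lag3, and the 188 IgG cells just outside, with Pdcd1 but no Tox, had 209 CPM. IgG cells with neither gene numbered 332 and had 60.3 CPM of Lag3. Cells just inside and just outside the Tox threshold were thus closer to each other in Lag3 than to cells that lacked both genes.

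The exhausted-like cells made up 11.6% of CD8 T cells in IgG (exact Clopper-Pearson 95% interval 10.3 to 13.0), 15.7% in anti-PD-1 (13.7 to 17.8), 12.8% in anti-PSGL-1 (11.2 to 14.6) and 10.7% in the combination (9.35 to 12.2). The anti-PD-1 library was the highest. That order was not kept at equal depth: with every cell thinned to 2000 UMIs the shares were 11.2, 10.7, 12.5 and 12.5%. Requiring 2 UMIs of Pdcd1 and of Tox gave 5.75, 9.20, 7.86 and 6.90%. The share of this population therefore gave no order of the treatments that held across settings.

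**Figure D1:**
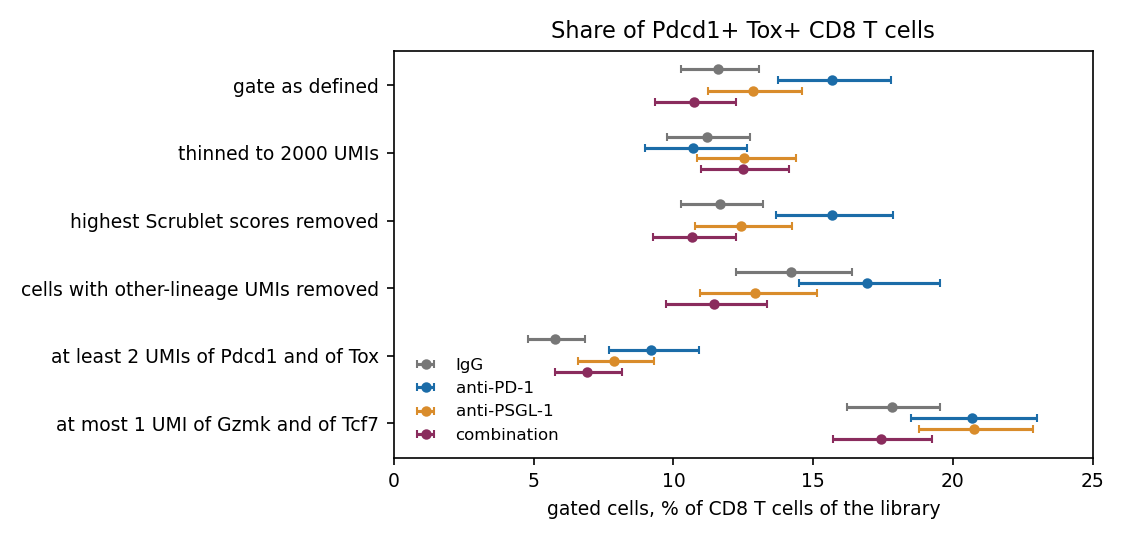
Share of CD8 T cells that were exhausted-like, in percent (x axis), for the 4 libraries (colours) under 6 settings (y axis), with exact 95% intervals that cover counting error. Anti-PD-1 is the highest library at 15.7% with the conditions as defined and the lowest at 10.7% after thinning to 2000 UMIs.

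Of the 18 genes of the receptor list, 8 reached 50 CPM in either library of the comparisons with IgG, and 0 of the 8 were past 1.5-fold in either direction under anti-PD-1, anti-PSGL-1 or the combination. Across all genes at 50 CPM or more, 4.54% were higher and 3.63% lower past 1.5-fold in anti-PD-1 than in IgG, 2.77% were higher and 2.16% lower in anti-PSGL-1, and 4.27% were higher and 4.06% lower in the combination. The 3 comparisons share the IgG library, so they are not independent of each other. In the combination against anti-PSGL-1, 1 of 8 receptors, Lag3, was higher past 1.5-fold and 1, the T cell receptor modulator Cd5, was lower at 0.599.

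Lag3 (chromosome 6, 124904361 to 124911705, minus strand) came nearest to the limit. Its ratio to IgG was 1.26 (1.12 to 1.42) in anti-PD-1, 0.687 (0.600 to 0.786) in anti-PSGL-1 and 1.21 (1.08 to 1.37) in the combination. The anti-PSGL-1 library was therefore the lowest of the 4, and the combination had 1.77 (1.56 to 2.00) times its level. Without cells that held other-lineage UMIs the combination had 1.47 times the anti-PSGL-1 level, within the limit, and 0.988 times the IgG level. After thinning, the share of cells with a Lag3 UMI was 48.5% of the cells in IgG, 56.7% in anti-PD-1, 32.7% in anti-PSGL-1 and 45.8% in the combination. Anti-PSGL-1 was again the lowest library and anti-PD-1 the highest, with IgG and the combination in the opposite order. Ctla4, the receptor that competes with CD28, stood at 259 CPM in the IgG library, 278 in anti-PD-1, 208 in anti-PSGL-1 and 268 in the combination. Its anti-PSGL-1 level was 0.805 (0.694 to 0.934) times that in IgG, and 1.07 times with the cells chosen and summed after thinning. In the cells chosen before thinning, a Ctla4 UMI was found at equal depth in 36.2% in IgG and 33.7% in anti-PSGL-1. The ratios of the 2 other treatments to IgG had intervals that included 1.

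Havcr2, which encodes TIM-3, stood at 149 CPM in the IgG library, 132 in anti-PD-1, 126 in anti-PSGL-1 and 137 in the combination, and all 3 ratios to IgG had intervals that included 1. Entpd1, the ectoenzyme CD39, stood at 53.2 CPM in the IgG library, 70.8 in anti-PD-1, 63.9 in anti-PSGL-1 and 64.3 in the combination, also with all 3 intervals including 1. Its thinned detection of 9.90 to 12.6% of cells was at or below the 17.2 to 23.7% in macrophages, which express it, so it was not read further. Tigit, a receptor for nectins, was near the floor at 11.7 CPM in the IgG library, 8.77 in anti-PD-1, 20.9 in anti-PSGL-1 and 21.1 in the combination. Counted together over 7 receptor genes in cells thinned to 2000 UMIs, a cell held a mean of 1.48 ± 1.11 receptors in IgG (SD over 229 cells), 1.54 ± 0.993 in anti-PD-1 (194 cells), 1.31 ± 1.02 in anti-PSGL-1 (199 cells) and 1.46 ± 1.01 in the combination (192 cells). The spread given is that of single cells, and the means were not tested.

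**Figure D2:**
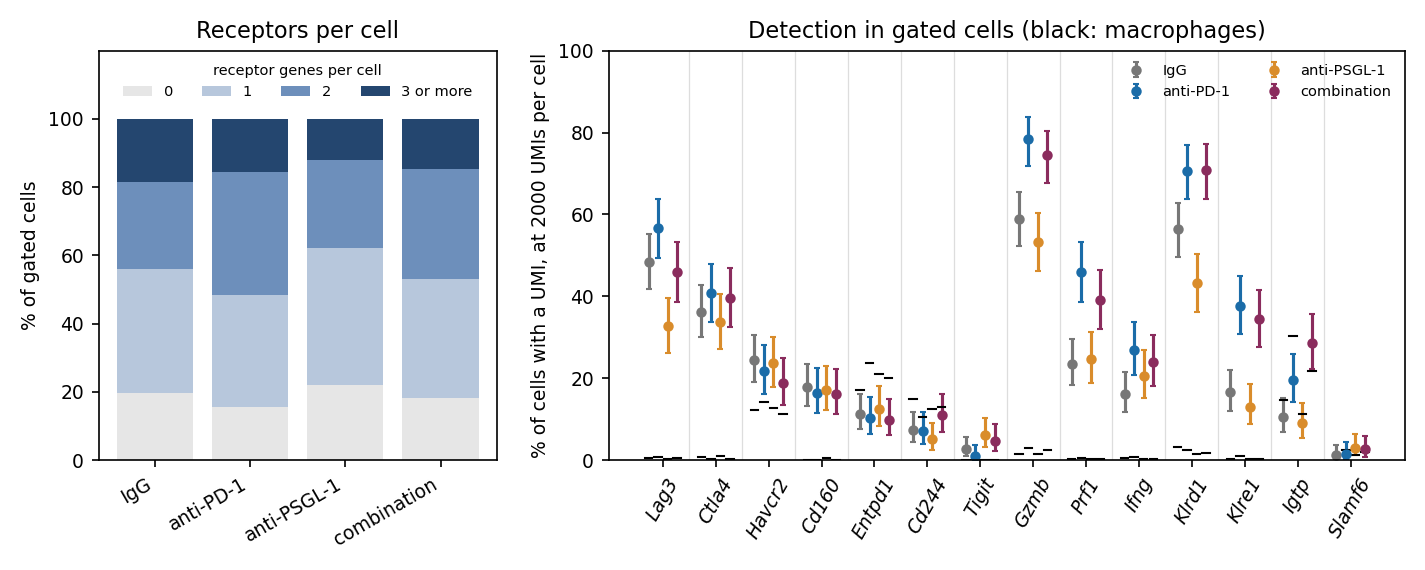
Left, the percentage of exhausted-like cells (y axis) with 0, 1, 2, or 3 or more of 7 inhibitory receptor genes after thinning to 2000 UMIs, by library. Right, the percentage of those cells with a UMI of each gene (points with exact 95% intervals, colours for libraries) and the same in macrophages (black dashes). Lag3 spans 32.7 to 56.7% with macrophages under 1%, while Gzmb is higher in anti-PD-1 and the combination than in the other 2 libraries.

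Rgs16 and Cxcr6, the other 2 markers, also stayed within 1.5-fold of IgG. The ratios of Rgs16 to IgG ran from 0.935 in the combination to 1.12 in anti-PSGL-1. Cxcr6 was 1.36 (1.23 to 1.51) times its IgG level in anti-PD-1 and 1.38 (1.25 to 1.53) times in the combination. Selplg, whose protein is the target of anti-PSGL-1, stood at 417 CPM in the IgG library, 459 in anti-PD-1, 421 in anti-PSGL-1 and 539 in the combination. Its ratio to IgG was 1.01 (0.903 to 1.13) in anti-PSGL-1 and 1.29 (1.16 to 1.43) in the combination.

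Killing genes were higher in anti-PD-1 and the combination than in IgG, with Gzmb and Prf1 past 1.5-fold in both. Gzmb (chromosome 14, 56258838 to 56262260, minus strand), the granzyme that starts cell death in the target, stood at 682 CPM in the IgG library, 1584 in anti-PD-1, 796 in anti-PSGL-1 and 1879 in the combination. The anti-PD-1 and combination libraries were both above the IgG and anti-PSGL-1 libraries, with ratios to IgG of 2.32 (2.16 to 2.50) and 2.76 (2.56 to 2.97). Prf1, which encodes the pore-former perforin, stood at 207 CPM in the IgG library, 422 in anti-PD-1, 197 in anti-PSGL-1 and 456 in the combination. It fell into the same 2 levels, 2.04 (1.77 to 2.35) times IgG in anti-PD-1 and 2.20 (1.92 to 2.53) times in the combination. Serpinb9, an inhibitor that shields the killer cell from its own granzyme B, stood at 241 CPM in the IgG library, 366 in anti-PD-1, 322 in anti-PSGL-1 and 489.7 in the combination, and its ratio to IgG was 2.03 (1.79 to 2.31) in the combination. In anti-PD-1 it was 1.52 (1.32 to 1.74), just past the limit, and 1.39 without cells that held other-lineage UMIs, beside 2.12 in macrophages.

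After thinning, Gzmb was found in 59.0% of the cells in IgG, 78.4% in anti-PD-1, 53.3% in anti-PSGL-1 and 74.5% in the combination, against 1.46 to 2.85% of macrophages. In the granule list, 3 of 13 measured genes were higher past 1.5-fold and 0 lower in anti-PD-1 against IgG, with a list median of 0.31 on the log2 scale against -0.01 over all genes. In the combination against IgG these were 4 and 0 of 13, with a median of 0.37 against 0.02. In anti-PSGL-1 against IgG they were 1 and 1 of 13, with a median of 0.03 against -0.07. The shares of all genes past 1.5-fold were 4.54, 4.27 and 2.77% higher and 3.63, 4.06 and 2.16% lower, in the same order. Nkg7, a granule membrane protein needed for killing, stood at 3089.9 CPM in the IgG library, 3876 in anti-PD-1, 2445 in anti-PSGL-1 and 4359 in the combination, so that anti-PSGL-1 was the lowest and the combination the highest library.

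The combination differed less from anti-PD-1 than from anti-PSGL-1. Against anti-PD-1, 2.01% of all genes were higher and 2.15% lower past 1.5-fold, and 0 of 13 granule genes were past it, with Gzmb at 1.19 (1.13 to 1.25). Against anti-PSGL-1, 6.25% of all genes were higher and 6.35% lower, and in the granule list 6 of 14 were higher and 1 lower. Gzmb was 2.36 (2.22 to 2.52) times as high, Prf1 2.31 (2.03 to 2.62) and Nkg7 1.78 (1.72 to 1.85). In the Gzmk-positive CD8 T cells of the same libraries, Gzmb had a ratio to IgG of 1.87 in anti-PD-1 and 2.23 in the combination, and Prf1 2.57 and 2.29.

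**Figure D3:**
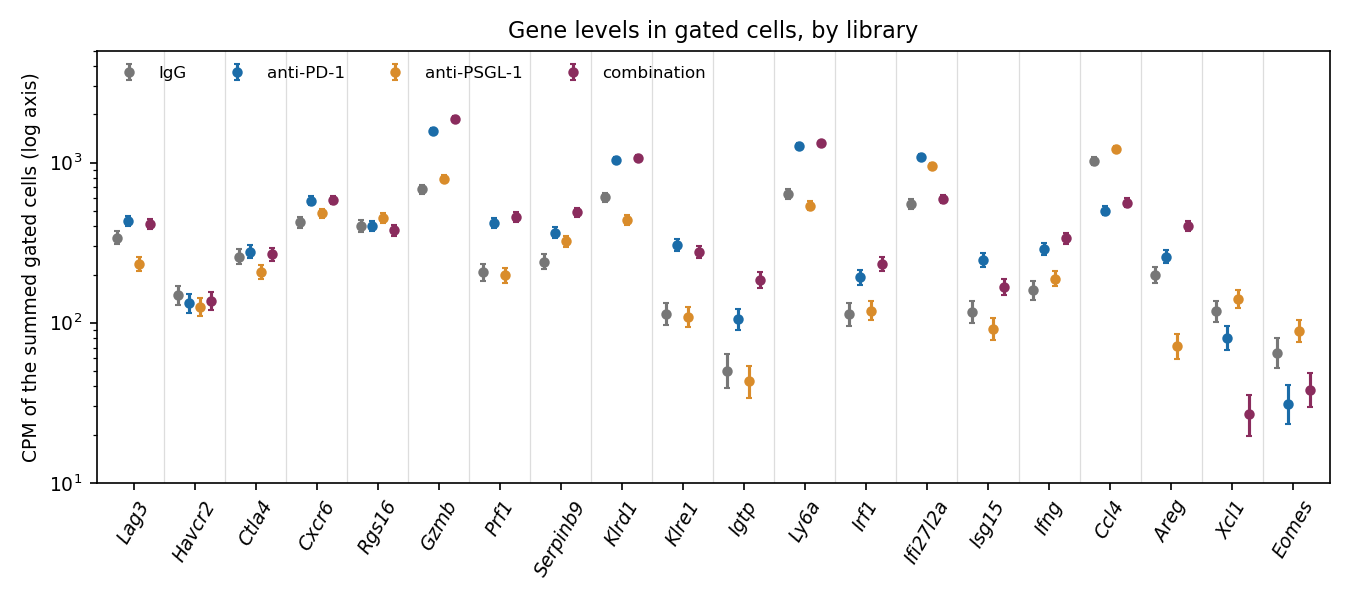
Levels of 20 genes in the exhausted-like cells (y axis, CPM on a log scale), by gene (x axis) and library (colours), with exact 95% intervals that cover counting error. Lag3 spans 234 to 429.9 CPM, Gzmb spans 682 to 1879 CPM and Xcl1 is lowest in the combination at 26.8 CPM.

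Killer lectin receptors, the surface proteins by which NK cells and activated CD8 T cells read MHC class I and stress ligands, followed the killing genes. Klrd1 (CD94, the partner chain of the NKG2 receptors) stood at 606 CPM in the IgG library, 1039.5 in anti-PD-1, 439.7 in anti-PSGL-1 and 1069 in the combination. Its anti-PD-1 level was 1.71 (1.58 to 1.86) times that in IgG, its combination level 1.76 (1.62 to 1.92) times and its anti-PSGL-1 level 0.725 (0.657 to 0.801) times. Klre1, a relative of Klrd1 in the same gene complex, stood at 114 CPM in the IgG library, 305 in anti-PD-1, 109 in anti-PSGL-1 and 277 in the combination. Both were highest in anti-PD-1 and the combination, and Klre1 was 2.69 (2.24 to 3.23) and 2.44 (2.03 to 2.94) times its IgG level there, the first being 4.44 after thinning. Klrc1, which encodes the inhibitory chain NKG2A, was 1.86 (1.58 to 2.20) times its IgG level in anti-PD-1, 1.76 (1.49 to 2.09) times in the combination and 0.799 times in anti-PSGL-1. The last turned to 1.25 after thinning.

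Of 9 measured members of this list, 5 were higher and 0 lower in anti-PD-1 against IgG, with a median of 0.72 on the log2 scale. Over all genes 4.54% were higher and 3.63% lower there, 4.27 and 4.06% in the combination and 2.77 and 2.16% in anti-PSGL-1. In the combination against IgG 4 were higher and 2 lower, the latter being Tyrobp and Cd7. In anti-PSGL-1 against IgG 0 were higher and 1, Cd7, was lower. The NK marker list, which also holds Klre1, Eomes and Xcl1, had 0 of its 8 genes at 0 in IgG, 2 in anti-PD-1, 1 in anti-PSGL-1 and 3 in the combination.

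Interferon-gamma response genes were higher past 1.5-fold in the combination than in IgG for 11 of 20 measured genes, with 0 lower. Of all genes 4.27% were higher and 4.06% lower there. Interferon-gamma, which T cells and NK cells secrete, raises its target genes through elements in their promoters known as GAS and ISRE. The windows of 250 bases before the start site of 3 GTPase genes of the list described next are printed from RefSeq (GRCm38.p6), 5′ to 3′ on the gene's strand, with capitals on letters that match GAS (TTC, any 3 bases, GAA) or ISRE (GAAA, any 2 bases, GAAA) on either strand; where the 2 overlap the letters are marked once. Igtp lies at chr11:58199306-58199555, plus strand, Irgm1 at chr11:48871421-48871670, minus strand and Gbp2 at chr3:142620413-142620662, plus strand.
Igtp: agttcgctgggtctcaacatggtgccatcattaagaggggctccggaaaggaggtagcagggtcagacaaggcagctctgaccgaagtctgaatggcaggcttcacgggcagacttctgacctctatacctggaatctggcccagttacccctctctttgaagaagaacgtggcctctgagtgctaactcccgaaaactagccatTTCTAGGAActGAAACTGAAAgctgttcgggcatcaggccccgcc
Irgm1: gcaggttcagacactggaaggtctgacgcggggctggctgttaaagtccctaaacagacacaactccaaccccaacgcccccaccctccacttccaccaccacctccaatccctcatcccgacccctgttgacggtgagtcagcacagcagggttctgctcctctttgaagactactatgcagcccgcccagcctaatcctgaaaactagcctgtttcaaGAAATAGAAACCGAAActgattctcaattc
Gbp2: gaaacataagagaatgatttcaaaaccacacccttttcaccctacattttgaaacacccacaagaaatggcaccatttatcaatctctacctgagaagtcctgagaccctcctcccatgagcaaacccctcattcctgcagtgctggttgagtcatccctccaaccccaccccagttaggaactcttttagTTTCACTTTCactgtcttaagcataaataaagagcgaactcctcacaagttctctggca

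The Igtp window held 1 GAS and 1 ISRE match, the Irgm1 window 2 ISRE matches and the Gbp2 window 1 ISRE match. Of the 23 genes of the list, 18 had a RefSeq window, of which 6 held a GAS match, 10 an ISRE match and 12 either. Over all 32851 promoter windows of that length, 7.02% held GAS and 2.98% held ISRE. A match is a description of letters and not of binding.

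Igtp (chromosome 11, 58199556 to 58207591, plus strand), an interferon-induced GTPase that acts on pathogen vacuoles, stood at 50.3 CPM in the IgG library, 105 in anti-PD-1, 43.0 in anti-PSGL-1 and 185 in the combination. Its ratio to IgG was 2.09 (1.58 to 2.81) in anti-PD-1 and 3.68 (2.83 to 4.85) in the combination, and the combination had 1.76 (1.46 to 2.12) times the anti-PD-1 level. After thinning the ratios to IgG were 1.32 and 1.98, and the combination against anti-PD-1 was at 0.58 on the log2 scale, so that only the combination against IgG was still past 1.5-fold of these 3. The share of cells with an Igtp UMI, before thinning, was 22.3% in IgG, 46.3% in anti-PD-1, 25.9% in anti-PSGL-1 and 62.2% in the combination. After thinning it was 10.5% of the cells in IgG, 19.6% in anti-PD-1, 9.05% in anti-PSGL-1 and 28.6% in the combination, against 11.1 to 30.4% of macrophages, which express the gene themselves. Irgm1, another GTPase of the family, stood at 27.7 CPM in the IgG library, 52.6 in anti-PD-1, 28.3 in anti-PSGL-1 and 87.7 in the combination, with a combination level 3.17 (2.21 to 4.65) times that in IgG and 1.67 (1.28 to 2.19) times that in anti-PD-1. The Irgm1 ratio of the combination to anti-PD-1 was 1.26 in cells with 2 UMIs of Pdcd1 and Tox and 2.77 without cells that held other-lineage UMIs. For these 2 GTPases the combination was above each single antibody, and the counting intervals excluded 1.

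Ly6a (Sca-1), an interferon-induced surface protein of activated T cells, stood at 638 CPM in the IgG library, 1274 in anti-PD-1, 539 in anti-PSGL-1 and 1318 in the combination, so that anti-PD-1 and the combination were close and both were above IgG and anti-PSGL-1. Irf1, the transcription factor that carries the response on, had a combination level 2.07 (1.71 to 2.50) times that in IgG, and Socs1, its feedback inhibitor, 2.10 (1.64 to 2.71) times. Gbp2, a guanylate-binding protein, stood at 53.9 CPM in the IgG library, 153 in anti-PD-1, 33.4 in anti-PSGL-1 and 102 in the combination. It was higher in anti-PD-1 than in the combination, but 45.8% of its anti-PD-1 UMIs lay in 3 cells. Without cells that held other-lineage UMIs, the ratio of anti-PD-1 to IgG was 1.49 in place of 2.84, and combination against anti-PD-1 turned from lower to higher at 2.75.

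In the whole list, 7 of 19 measured genes were higher past 1.5-fold in anti-PD-1 against IgG, 11 of 20 in the combination against IgG and 12 of 20 in the combination against anti-PSGL-1, with 0 lower in each. The medians were 0.36, 0.66 and 0.70 on the log2 scale, against -0.01, 0.02 and 0.09 over all genes. The shares of all genes past 1.5-fold were 4.54, 4.27 and 6.25% higher and 3.63, 4.06 and 6.35% lower, in the same order. Anti-PSGL-1 against IgG had 0 list genes higher and 1 lower of 17, beside 2.77 and 2.16% of all genes, with a median of -0.13. In the combination against anti-PD-1, 2 of 20 were higher, namely Igtp and Irgm1, and 1, Gbp2, was lower, beside 2.01 and 2.15% of all genes. The median was 0.21 against 0.02, and the other 17 were within 1.5-fold. Macrophages of the same libraries also differed, with Igtp at 2.51 in anti-PD-1 and 1.93 in the combination relative to IgG. For the combination against anti-PD-1 they went the other way, with an Igtp ratio of 0.769 and an Irgm1 ratio of 0.788. In the Gzmk-positive CD8 T cells the Igtp ratio of the combination to anti-PD-1 was 1.74, close to that in the exhausted-like cells.

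Genes of the type I interferon response, the antiviral program that interferon-alpha and interferon-beta set off, were higher in anti-PD-1 than in IgG. Of 10 measured genes, 9 were higher past 1.5-fold in anti-PD-1 than in IgG and 0 lower, with a median of 0.93 on the log2 scale. A gene was measured at 50 CPM in either library, so it could enter through the higher library alone. In the combination against IgG 7 genes of the list were measured, and in anti-PSGL-1 against IgG 6. The counts and medians that involve anti-PD-1 thus partly follow from this minimum. Over all genes 4.54% were higher and 3.63% lower, with a median of -0.01. Ifi27l2a, an interferon-induced mitochondrial protein, stood at 549 CPM in the IgG library, 1087 in anti-PD-1, 952 in anti-PSGL-1 and 593 in the combination. Isg15, a ubiquitin-like modifier, stood at 117 CPM in the IgG library, 247 in anti-PD-1, 91.7 in anti-PSGL-1 and 167 in the combination. The combination was below anti-PD-1 for both, at 0.546 (0.506 to 0.589) and 0.676 (0.580 to 0.786) times, and in the list 0 of 10 were higher and 4 lower in that comparison, with a median of -0.45. Over all genes 2.01% were higher and 2.15% lower there, with a median of 0.02. The Isg15 ratio was within 1.5-fold and was 1.03 without the cells of highest Scrublet score, a score that marks likely doublets. Isg20, an exonuclease, was lower in that comparison too, at 0.504 (0.375 to 0.673).

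In anti-PSGL-1 against IgG, 1 of 6 measured genes, Ifi27l2a, was higher past 1.5-fold, at 1.74 (1.59 to 1.89) times the IgG level and 1.49 times after thinning, 0 were lower, and the list median was -0.14. Over all genes 2.77% were higher and 2.16% lower, with a median of -0.07. Rsad2 (viperin) had the largest ratio of the list in anti-PD-1 against IgG, 6.42 (3.87 to 11.3), but 75.7% of its anti-PD-1 UMIs lay in 3 cells, and the ratio was 2.24 after thinning and 1.32 without the cells of highest Scrublet score. Macrophages again differed in the same direction, with an Isg15 ratio of 1.85 for anti-PD-1 against IgG and 0.514 for the combination against anti-PD-1. Whether RNA from other cells had a part in the T cell values was not tested.

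**Figure D4:**
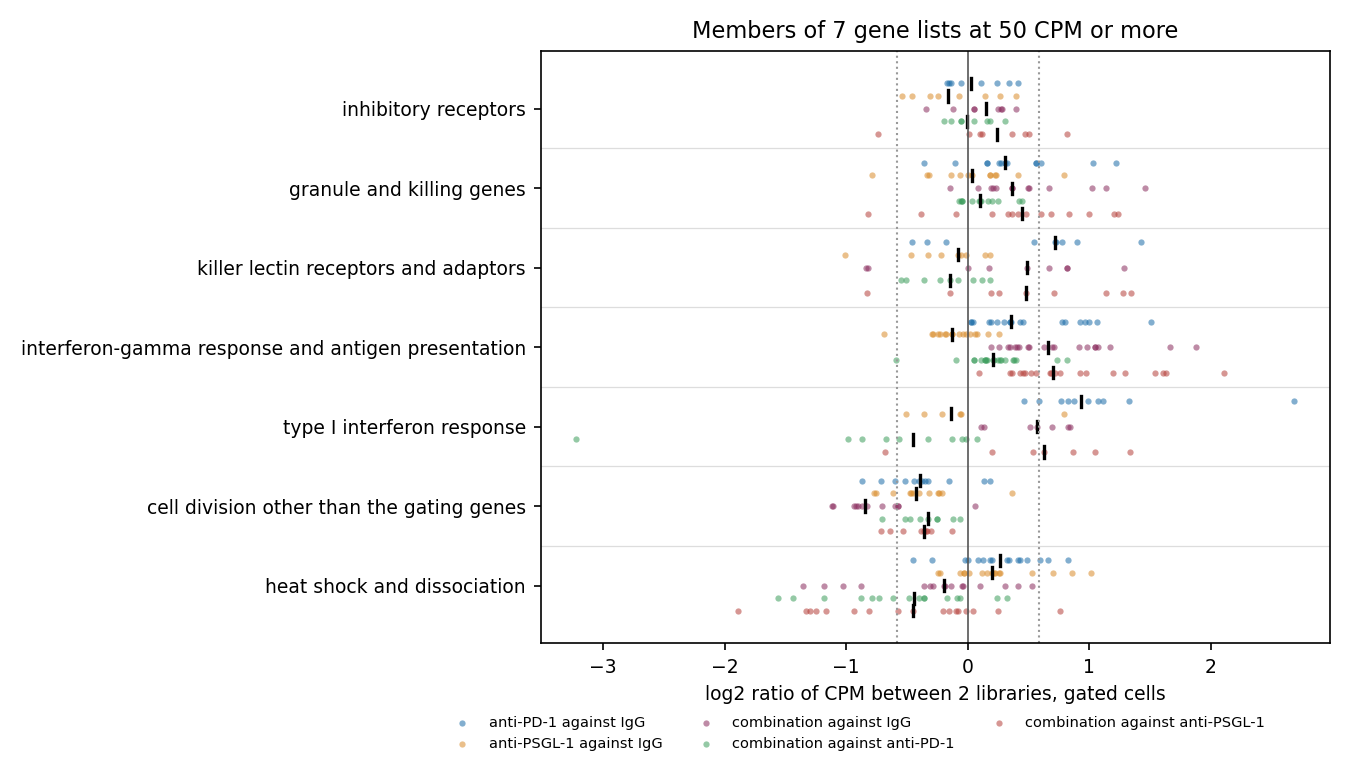
Log2 ratio of CPM between 2 libraries (x axis) for the members at 50 CPM or more of 7 gene lists (y axis), 1 dot per gene and 1 colour per comparison, with black ticks at the medians and dotted lines at 1.5-fold. Inhibitory receptors lie between the dotted lines in the 3 comparisons with IgG, and interferon-gamma response genes lie above 0 in the combination against anti-PSGL-1 with a median of 0.70.

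Secreted factors differed in both directions. Ifng (chromosome 10, 118441046 to 118445892, plus strand), interferon-gamma itself, stood at 159.6 CPM in the IgG library, 288 in anti-PD-1, 188 in anti-PSGL-1 and 336 in the combination. Its ratio to IgG was 1.81 (1.54 to 2.13) in anti-PD-1 and 2.11 (1.80 to 2.47) in the combination, but at equal depth the share of cells with an Ifng UMI was 16.2% in IgG and 20.6 to 26.8% in the others, and the thinned ratio for anti-PD-1 was 1.25. Lgals3, the galectin-3 gene, was 1.91 (1.74 to 2.09) times its IgG level in anti-PD-1 and 1.97 (1.80 to 2.16) times in the combination. Neither stayed past 1.5-fold with the cells chosen and summed after thinning, where the ratios were 1.48 and 1.14. The first was 1.38 without cells that held other-lineage UMIs. Macrophages held 3974 CPM of Lgals3 in IgG, 5397 in anti-PD-1 and 4265 in the combination, against 486, 928 and 956 CPM in the exhausted-like cells. Ccl4, a chemokine that draws other immune cells, stood at 1022 CPM in the IgG library, 501 in anti-PD-1, 1214 in anti-PSGL-1 and 563 in the combination. Anti-PD-1 and the combination were the 2 lower libraries, and anti-PD-1 had 0.490 (0.450 to 0.534) times the IgG level. After thinning, Ccl4 was found in 36.2% of the cells in IgG, 26.8% in anti-PD-1, 37.7% in anti-PSGL-1 and 31.2% in the combination, shares that overlap the 30.4 to 46.1% of macrophages, which express it. In macrophages the ratio of anti-PD-1 to IgG was 1.54, the opposite direction.

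Xcl1 (chromosome 1, 164931644 to 164935527, minus strand), the chemokine that attracts cross-presenting dendritic cells, stood at 118 CPM in the IgG library, 80.1 in anti-PD-1, 141 in anti-PSGL-1 and 26.8 in the combination. The combination was the lowest library, at 0.227 (0.160 to 0.316) times the IgG level, 0.334 (0.234 to 0.468) times anti-PD-1 and 0.190 (0.136 to 0.260) times anti-PSGL-1. The ratio to anti-PD-1 depended on which cells were taken: it was 0.624 without cells that held other-lineage UMIs, 0.962 in cells with 2 UMIs of Pdcd1 and Tox and 0.148 after thinning, and the ratio to IgG was 0.113 after thinning. Few cells carried it: 12.8% in IgG, 6.97% in anti-PD-1, 8.96% in anti-PSGL-1 and 4.08% in the combination, and the top 3 cells of a library held 52.5 to 78.7% of its UMIs. Areg, the gene of amphiregulin, which signals through the EGF receptor, stood at 199 CPM in the IgG library, 259 in anti-PD-1, 71.3 in anti-PSGL-1 and 403 in the combination. Anti-PSGL-1 was the lowest library, at 0.358 (0.288 to 0.444) times IgG, and the combination was 5.65 (4.67 to 6.88) times anti-PSGL-1, with 14.4 to 21.4% of cells carrying a UMI. These ratios were 0.202 after thinning for the first and 3.43 without cells that held other-lineage UMIs for the second. Spp1 (osteopontin) appeared lower in anti-PSGL-1 at 0.661 (0.571 to 0.764) times IgG, but 1 IgG cell held 60.5% of the IgG UMIs, and without the top cell the ratio was 1.26.

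Of the transcription factors of exhaustion and effector function, 2 of 18 measured genes were higher and 1 lower in anti-PD-1, 3 of 19 higher and 1 lower in anti-PSGL-1 and 0 of 18 higher and 1 lower in the combination, each against IgG, beside 4.54, 2.77 and 4.27% of all genes higher. The list medians were 0.18, 0.21 and 0.05 on the log2 scale, against -0.01, -0.07 and 0.02 over all genes. Eomes, a T-box factor of memory and exhausted cells, stood at 64.8 CPM in the IgG library, 31.0 in anti-PD-1, 88.8 in anti-PSGL-1 and 38.2 in the combination. Anti-PD-1 and the combination were below the other 2 libraries, at 0.478 (0.334 to 0.679) and 0.588 (0.422 to 0.817) times IgG. After thinning the second was 0.869, no longer past 1.5-fold. In the Gzmk-positive cells the same 2 ratios were 0.904 (0.699 to 1.17) and 0.821 (0.676 to 1.00). Maf, a factor tied to IL-10 and inhibitory receptor expression, was 1.88 (1.39 to 2.58) times its IgG level in anti-PSGL-1 and 0.381 (0.275 to 0.521) times as high in the combination as in anti-PSGL-1.

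Ly6c2, a surface protein of memory and effector CD8 T cells that monocytes also carry, stood at 249.9 CPM in the IgG library, 641 in anti-PD-1, 393 in anti-PSGL-1 and 714 in the combination, above IgG in all 3 treatments. Macrophages also differed, with a ratio of anti-PD-1 to IgG of 2.28 beside 2.56 in the exhausted-like cells. After thinning Ly6c2 was found in 31.4% of the cells in IgG, 50.5% in anti-PD-1, 42.2% in anti-PSGL-1 and 52.6% in the combination, against 45.1 to 73.3% of macrophages. Ccr7, the lymph node homing receptor, stood at 125 CPM in the IgG library, 57.3 in anti-PD-1, 229 in anti-PSGL-1 and 51.8 in the combination. It was carried by 7.14 to 18.9% of cells, and the ratio of anti-PSGL-1 to IgG turned from 1.84 to 0.453 with thinning. Ccr7 is also a marker of migrating dendritic cells, and whether RNA of such cells had a part in its level was not tested. Icos, a costimulatory receptor of the CD28 family, was 1.51 (1.25 to 1.82) times its IgG level in anti-PD-1 and 1.73 (1.44 to 2.08) times in the combination, and Tnfrsf4 (OX40) 0.655 and 0.629 times. Icos in anti-PD-1 was 1.45 after thinning, and Tnfrsf4 in the combination 0.691 without the cells of highest Scrublet score, both within 1.5-fold.

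Genes of cell division other than the 2 used to remove dividing cells had list medians below 0 in all 3 treatments against IgG. In the combination 9 of 12 measured genes were lower past 1.5-fold and 0 higher, with a median of -0.85 on the log2 scale, and in anti-PD-1 and anti-PSGL-1 3 of 12 were lower and 0 higher, with medians of -0.39 and -0.42. Over all genes 4.06% were lower in the combination, 3.63% in anti-PD-1 and 2.16% in anti-PSGL-1. Hmgb2, a chromatin protein of cycling cells, was 0.547 (0.502 to 0.596) times its IgG level in anti-PD-1 and 0.523 (0.479 to 0.570) times in the combination. The condition on Mki67 and Top2a counts UMIs, and IgG was the shallowest library. With the cells chosen and summed after thinning, the 2 Hmgb2 ratios were 0.672 and 0.822. Stmn1, a tubulin-binding protein of dividing cells, stood at 0.461 times IgG in the combination and at 1.09 times after thinning.

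Of 24 oxidative phosphorylation genes, all measured, 0 were higher and 1 lower past 1.5-fold in anti-PD-1 and in the combination against IgG, and 0 in either direction in anti-PSGL-1. The count of 1 is near the share over all genes, of which 3.63% were lower in anti-PD-1 and 4.06% in the combination. Of the glycolysis and hypoxia genes, 1 of 14 was higher, the lactate transporter Slc16a3 at 1.57, and 1.33 without cells that held other-lineage UMIs, and 2 were lower in anti-PD-1 against IgG, the enzymes Pgk1 at 0.388 and Eno1 at 0.494. In macrophages those 2 ratios were 0.304 and 0.474. In the combination against anti-PD-1 Slc16a3, Pgk1 and Eno1 were past 1.5-fold the other way, of 15 measured. In the combination against anti-PSGL-1, 6 of the 24 oxidative phosphorylation genes were lower, among them the subunits Cox7c at 0.607 and Atp5e at 0.634. Heat shock and dissociation genes, which respond to the handling of tissue, were lower in the combination than in anti-PD-1 for 7 of 16 genes and than in anti-PSGL-1 for 7 of 17. In the second comparison 1 was higher. Over all genes 2.15 and 6.35% were lower in these comparisons. The list medians were -0.44 and -0.45 on the log2 scale, against 0.02 and 0.09 over all genes. Hspa1a stood at 207 CPM in the IgG library, 238 in anti-PD-1, 203 in anti-PSGL-1 and 80.9 in the combination.

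Several of the largest ratios in the table rested on few cells, or were about as large in macrophages. S100a8 and S100a9, calprotectin genes of neutrophils, were 0.0122 and 0.0155 times their IgG levels in the combination, but 1 IgG cell held 76.6% of the S100a8 UMIs and 84.1% of the S100a9 UMIs. Apoe, a macrophage lipid carrier, was 6.86 times as high in the combination as in anti-PD-1, with 83.9% of its combination UMIs in 1 cell, and was 0.509 times without cells that held other-lineage UMIs. Gstp1, a glutathione transferase, was 0.136 (0.0813 to 0.217) times its IgG level in anti-PD-1, 0.228 times after thinning and 0.116 times in macrophages. S100a4, a calcium-binding protein of motile cells, was neither case. It was found in 80.6% of IgG cells and stood at 639.7 CPM in the IgG library, 1948 in anti-PD-1, 839 in anti-PSGL-1 and 1032 in the combination. Its ratio of anti-PD-1 to IgG was 3.05 (2.83 to 3.28), beside a smaller 1.82 in macrophages.

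Scaling and depth bore on the counts. Anti-PD-1 against IgG had 130 genes higher and 104 lower, 55.6% higher, and with TMM scaling 161 and 81, 66.5% higher. Anti-PSGL-1 against IgG had 78 and 61, 56.1% higher, and with TMM scaling 118 and 38, 75.6% higher, or 110 and 41, 72.8% higher, with DESeq2 size factors. Of the 130 and 104 genes, 71 and 64 were also past 1.5-fold in the same direction after thinning. Of the 123 and 117 genes of the combination against IgG, 64 and 60 were.

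Each library also held CD8 T cells that passed the Pdcd1 and Tox conditions but failed at least 1 of the others, so the exhausted-like cells could be set against these neighbours within libraries. Dividing cells were set aside first, and the neighbours were then taken in the order granzymes C to G, Tcf7, Gzmk. Granzyme C to G cells could thus also hold Tcf7 or Gzmk UMIs, and Tcf7-positive cells could also hold Gzmk UMIs. The library served as the replicate and the pair, and the genes used by the conditions were left out. Gzmk-positive cells numbered 1064, Tcf7-positive cells 126 and cells with 3 or more UMIs of granzymes C to G 369. The comparison with Tcf7-positive cells used 3 libraries, because anti-PD-1 held 11 such cells. CPM values here are scaled without the genes of the conditions and so differ slightly from those above.

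Against the Gzmk-positive cells, named for a granzyme known from effector-memory CD8 T cells, 1.46% of 8344 genes were higher and 0.983% lower in edgeR's quasi-likelihood test with a Benjamini-Hochberg adjusted p under 0.05. Xcl1 led, with 119 against 28.3 CPM in IgG, 80.7 against 3.25 CPM in anti-PD-1, 142 against 13.0 CPM in anti-PSGL-1 and 27.0 against 7.75 CPM in the combination. It was higher in 4 of 4 libraries by a log2 fold change of 2.73 (SE 0.22, adjusted p = 2.05e-07). Nrgn, a calmodulin-binding protein, was higher by 1.06 (SE 0.07, adjusted p = 3.4e-08) and Il18r1, a chain of the interleukin-18 receptor, by 1.13 (SE 0.11, adjusted p = 2.61e-06). Il18rap, the other chain of that receptor, was higher by 0.94 (SE 0.11, adjusted p = 6.32e-05), so both chains of 1 receptor were higher in the exhausted-like cells.

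Klrd1 was again among the higher genes, with 610.0 against 299 CPM in IgG, 1047 against 625 CPM in anti-PD-1, 442 against 312 CPM in anti-PSGL-1 and 1077 against 627 CPM in the combination, a log2 fold change of 0.75 (SE 0.06, adjusted p = 1.31e-07). Of 10 tested killer lectin genes 6 were higher, namely Klrd1, Klrk1, Klre1, Klrc1, Klrc2 and Fcer1g, and 1, Cd7, was lower, with a list median of 0.47 against -0.00 over all genes. Of 17 secreted factors 8 were higher, among them Ccl3, Ccl4, Ifng and Areg, and Ccl5 and Il10 were lower. At equal depth, Ifng was found in 16.2% of exhausted-like cells in IgG, 26.8% in anti-PD-1, 20.6% in anti-PSGL-1 and 24.0% in the combination. In the Gzmk-positive cells these shares were 19.4, 26.8, 20 and 17.5%. For Ccl3 they were 28.8, 18.6, 31.2 and 21.9% against 19.0, 22.5, 27.9 and 20.7%. Macrophages held Ccl3 in 21.1 to 25.6% and Ccl4 in 30.4 to 46.1% of cells. Of 24 transcription factors 8 were higher, among them Irf8, Nr4a3, Tbx21 and Bhlhe40, and Maf, Eomes and Tox2 were lower. Of 13 naive and progenitor genes 2, Il7r and Ccr7, were higher and 1, Lef1, was lower. Ccr7 was higher in 4 of 4 libraries, by a log2 fold change of 1.04 (SE 0.16, adjusted p = 0.000662).

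Genes lower than in the Gzmk-positive cells included a granzyme and a T-box factor. Gzma, a tryptase granzyme next to Gzmk in the genome, had 49.1 against 62.0 CPM in IgG, 40.7 against 102 CPM in anti-PD-1, 84.8 against 154 CPM in anti-PSGL-1 and 48.2 against 344 CPM in the combination, a log2 fold change of -1.52 (SE 0.22, adjusted p = 0.00048). Eomes had 65.3 against 93.3 CPM in IgG, 31.2 against 84.5 CPM in anti-PD-1, 89.3 against 119.9 CPM in anti-PSGL-1 and 38.5 against 76.7 CPM in the combination, a log2 fold change of -0.77 (SE 0.12, adjusted p = 0.000984). Both were lower in 4 of 4 libraries. Of 16 inhibitory receptors tested, 0 were higher and 2, Klrg1 and Entpd1, lower, beside 1.46 and 0.983% of all genes. The count of 0 higher is near the share over all genes and says little about the receptors. Lag3 differed by -0.05 (SE 0.06, adjusted p = 0.828), Rgs16 by -0.02 (SE 0.06, adjusted p = 0.915) and Havcr2 by -0.16 (SE 0.09, adjusted p = 0.522), and none of these 3 passed the test. The Entpd1 call was lost without IgG at -0.39, without anti-PSGL-1 at -0.35 and without the combination at -0.39. The Gzmk-positive cells were deeper, with medians of 6240 to 9038 UMIs. After thinning, 37 genes were called in place of 204, with Xcl1 and Klrd1 still among them and Eomes and Il18rap not.

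**Figure D5:**
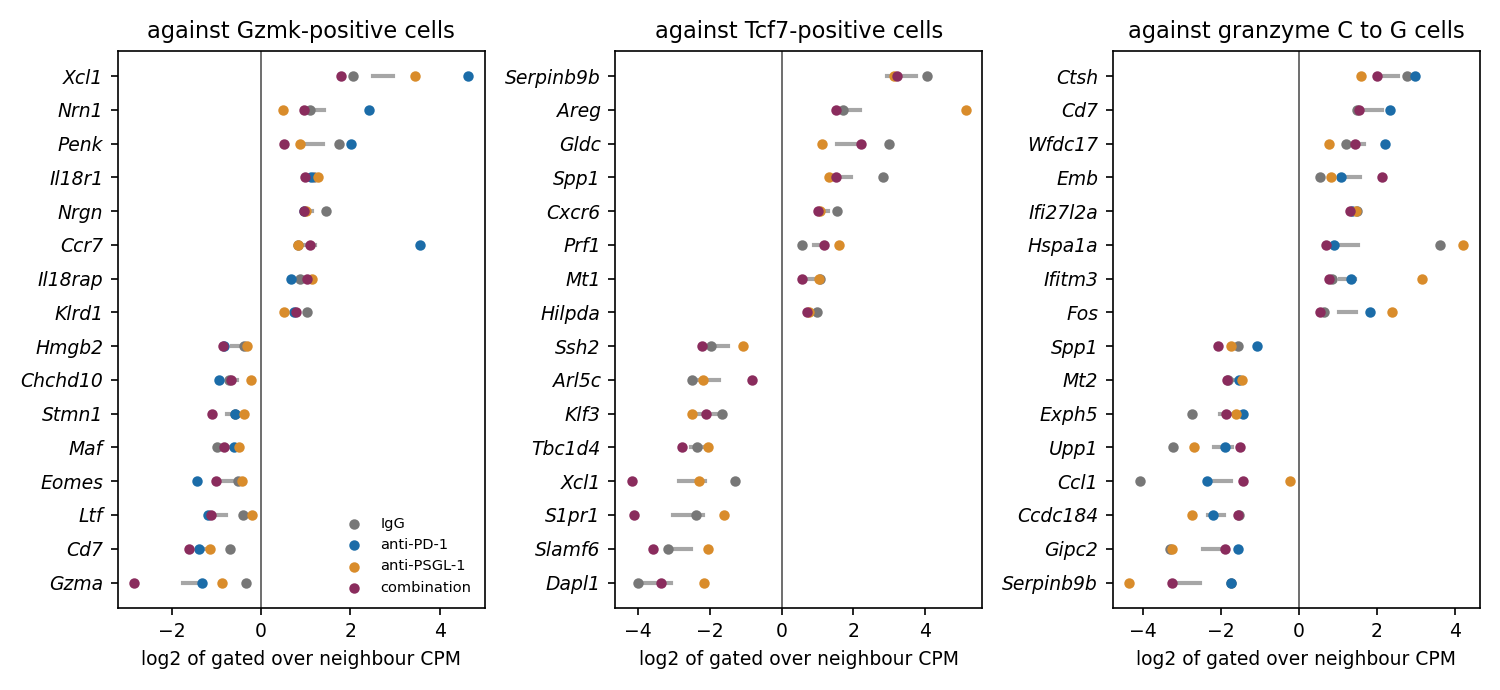
Log2 of the CPM in exhausted-like cells over the CPM in neighbouring cells of the same library (x axis) for the genes named by rule (y axis), with 1 point per library and grey bars for the log2 fold change ± SE; libraries with 0 on either side have no point. Xcl1 is higher than in Gzmk-positive cells in all 4 libraries and lower than in Tcf7-positive cells in all 3.

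Against the Tcf7-positive cells, 0.296% of 7098 genes were higher and 0.634% lower. Cxcr6 had 427 against 145 CPM in IgG, 486 against 231 CPM in anti-PSGL-1 and 590.0 against 291 CPM in the combination, a log2 fold change of 1.16 (SE 0.14, adjusted p = 0.00364). Prf1 was higher by 1.09 (SE 0.18, adjusted p = 0.0182), Lag3 by 0.68 (SE 0.13, adjusted p = 0.0419) and Rgs16 by 0.72 (SE 0.13, adjusted p = 0.0332). Of 16 granule genes 5 were higher, namely Serpinb9b, Nkg7, Gzmb, Prf1 and Cst7, and 2 lower. Each of the calls of Lag3 and Rgs16 was lost when any 1 library was left out, with Lag3 then at 0.62 to 0.83 and Rgs16 at 0.61 to 0.85. That of Cxcr6 was lost without anti-PSGL-1 at 1.25, and that of Prf1 without anti-PSGL-1 at 0.88 and without the combination at 1.08. The direction was the same in each of these fits.

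Genes lower than in Tcf7-positive cells included markers of progenitors. Slamf6, a receptor that marks progenitor exhausted cells, had 10.3 against 91.6 CPM in IgG, 11.4 against 47.4 CPM in anti-PSGL-1 and 6.31 against 74.7 CPM in the combination, a log2 fold change of -2.87 (SE 0.34, adjusted p = 0.00364). Dapl1, found in naive and memory-like cells, was lower, at -3.44 (SE 0.36, adjusted p = 0.00166), as was S1pr1, the receptor for exit into blood and lymph, at -2.61 (SE 0.42, adjusted p = 0.0165). Xcl1 was lower, at -2.50 (SE 0.36, adjusted p = 0.00959), so it ran in the order Tcf7-positive, exhausted-like, Gzmk-positive. Of 15 tested naive and progenitor genes 8 were lower and 0 higher, with a list median of -1.43. Tcf7 itself defined the 2 groups, and the list is known to go with it, so this count is close to the choice of cells. Without IgG the calls of Slamf6 at -2.71, Dapl1 at -2.74 and S1pr1 at -2.71 were lost, and without anti-PSGL-1 those of S1pr1 at -3.19 and Xcl1 at -2.64. The number of calls rested on single libraries: it was 66 with all 3, 15 without IgG and 9 without anti-PSGL-1.

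Against the granzyme C to G cells, 2.48% of 8304 genes were higher and 1.76% lower. Ifi27l2a had 552 against 196 CPM in IgG, 1095 against 427 CPM in anti-PD-1, 957 against 349 CPM in anti-PSGL-1 and 598 against 239 CPM in the combination, a log2 fold change of 1.36 (SE 0.08, adjusted p = 4.05e-08). Of 19 type I interferon genes 8 were higher and 0 lower, and of 23 interferon-gamma genes 7 were higher and 0 lower. Ctsh, a lysosomal protease, was higher by 2.32 (SE 0.23, adjusted p = 8.72e-06) and Cd7, a T cell surface protein, by 1.92 (SE 0.21, adjusted p = 3.1e-05). Homing genes were higher for 6 of 17, among them Cxcr3, Cxcr4 and Cd44.

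The granzyme C to G cells held more RNA of several killing genes, but they were themselves chosen by granzyme UMIs. The count of granule genes is therefore close to the choice of cells. These neighbours were also deeper, with medians of 7787 to 14394.5 UMIs against 5178 to 8263 in the exhausted-like cells. Of 16 granule genes 7 were lower in the exhausted-like cells, among them Gzmb, Prf1 and Serpinb9, and 1, Lamp1, was higher. Serpinb9b had 63.1 against 209 CPM in IgG, 75.4 against 249.6 CPM in anti-PD-1, 36.4 against 738 CPM in anti-PSGL-1 and 72.9 against 693 CPM in the combination, a log2 fold change of -2.83 (SE 0.28, adjusted p = 1.07e-05). Spp1 was lower, at -1.64 (SE 0.12, adjusted p = 3.96e-07), and Ccl1 at -2.06 (SE 0.32, adjusted p = 0.000932). Of 22 glycolysis genes 6 were lower and 0 higher. Havcr2 was the 1 receptor of 15 to pass, lower at -0.47 (SE 0.12, adjusted p = 0.0305), while Lag3 differed by 0.15 (SE 0.10, adjusted p = 0.483). The Havcr2 call was lost without anti-PD-1 at -0.37 and without the combination at -0.39. The number of calls was 352, with 175 without anti-PD-1 and 116 without the combination.

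Among the exhausted-like cells themselves, Ccl5 varied most. The variance of UMIs per cell over their mean, after thinning, is 1 for counts that scatter at random, and its median over 1998 genes was 1.06. This chemokine, ranked by the lowest of the 4 libraries, stood at 19.7 and was found in 88.2 to 94.3% of cells. Cd74 followed at 14.0, the nuclear RNA Malat1 at 13.1, and the chemokines Ccl3 at 10.5 and Ccl4 at 8.91, and the tenth of cells with the most Ccl3 held 76.0 to 89.5% of its UMIs. A few cells of each library thus held most of the Ccl3, while Ccl5 was in nearly all. Lyz2, H2-Ab1, H2-Aa and H2-Eb1, like Cd74 genes of antigen-presenting and myeloid cells, were also among the 15 most variable, and the tenth of cells with the most Cd74 held 70.9 to 100% of its UMIs.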

How the data were processed

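The authors deposited raw UMI counts per gene and cell barcode for 4 libraries of 1 treatment each. They were made with Cell Ranger 3.1.0 on mm10 after FastQC, per the submitters' processing notes, and further parameters are not given in the sources used. Kept barcodes had at least 300 genes, 60000 UMIs or fewer and a mitochondrial share of up to 10%, 25954 of 27270. The exhausted-like cells, the neighbours and the 15 gene lists were chosen with earlier results of these data known, so no count over them is independent support.

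Raw counts of the chosen cells were summed per library and scaled to CPM (Python 3.11.15, scanpy 1.11.5, scipy 1.17.1). Treatments were compared by the ratio of 2 sums with an exact conditional interval, and genes were counted past 1.5-fold at 50 CPM or more in either library, leaving out the genes of the conditions. A gene could thus enter a count through the higher library alone, in the lists as over all genes. The 2 cell groups of a comparison with neighbours were summed in each library with at least 20 cells of both and tested with edgeR 4.0.16 (quasi-likelihood, TMM, library as a block, Benjamini-Hochberg 0.05) in R 4.3.3. The library is the pair by design, since each holds both groups. On simulated counts with 200 genes changed 2-fold, the test recovered 100% against Gzmk-positive cells (8300 genes), 82% against Tcf7-positive cells (7086 genes) and 95.5% against granzyme C to G cells (8294 genes). False calls made up 4.76, 0.606 and 0.521% of the calls. The simulation gave every gene the same fixed dispersion, had no library effect and changed only genes at 50 CPM or more. It checks the code and does not give the power in these data.

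Genes were named by a rule: the 5 genes farthest from 1 in each direction and up to 4 members per list for each treatment comparison, by the interval bound nearest to 1, and for each neighbour the 8 genes per direction with the largest log2 fold change among calls that had the same direction in every library and at least 50 CPM. The text gives a part of those genes, and some are not reported here. Lag3, Rgs16, Cxcr6, Havcr2, Tigit, Entpd1, Ctla4 and Selplg were always named. Scrublet called 1 cell in IgG, 84 in anti-PD-1, 0 in anti-PSGL-1 and 42 in the combination, which for IgG and anti-PSGL-1 is a failed call. Doublets were therefore kept, and an alternative removed the highest scores at 0.8% per 1000 cells. Other alternatives were DESeq2 1.42.0, other scalings and minimum levels, thinning to 2000 UMIs, and leaving out cells with other-lineage UMIs or each library. Intervals cover counting error only.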

Additional observations from a re-analysis of the deposited data

Results flagged for a closer look

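For 5 genes the ratios in exhausted-like and in Gzmk-positive cells lay on opposite sides of 1, and none of these differences between the 2 kinds of cell was tested. Spp1 in anti-PSGL-1 against IgG had a ratio of 0.661 in the exhausted-like cells and 2.93 (2.38 to 3.63) in the Gzmk-positive cells, with 1 exhausted-like IgG cell holding 60.5% of the IgG UMIs. Gbp2 in the combination against anti-PD-1 had 0.665 and 1.56 (1.23 to 2.01). The first value turned to above 1 without other-lineage cells, without the highest Scrublet scores and with equal weight per cell. On the log2 scale it was then 1.46, 1.13 and 0.17. Ifitm1, an interferon-induced membrane protein, had 0.0666 and 5.09 in the combination against anti-PD-1, with 85.0% of its anti-PD-1 UMIs in 3 exhausted-like cells. S100a9 in the combination against IgG had 0.0155 and 1.58, and against anti-PSGL-1 0.023 and 10.4. S100a8 in the combination against anti-PSGL-1 had 0.0155 and 5.55. The top 3 exhausted-like anti-PSGL-1 cells held 96.9% of the S100a8 UMIs and 96.9% of the S100a9 UMIs.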

How the results depend on the processing

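With 1 library per treatment no paired analysis of the treatments was possible because no group has a second replicate. The share of CD8 T cells moved beyond its interval in 11 of 24 alternatives: thinning gave 10.7% in anti-PD-1 and 12.5% in the combination, removal of cells with other-lineage UMIs 14.2% in IgG, 2 UMIs of Pdcd1 and Tox 5.75% in IgG, 9.20% in anti-PD-1, 7.86% in anti-PSGL-1 and 6.90% in the combination, and 1 allowed UMI of Gzmk or Tcf7 17.8, 20.7, 20.8 and 17.4% in that order. Genes past 1.5-fold numbered 234 in anti-PD-1, 139 in anti-PSGL-1 and 240 in the combination against IgG, and 118 and 361 in the combination against anti-PD-1 and anti-PSGL-1. In that order they were 765, 557, 573, 655 and 737 after thinning, 720, 538, 743, 442 and 811 at 20 CPM, and 5019, 4911, 5098, 4594 and 5259 with no minimum, where low counts dominate. Without other-lineage cells 222 were past it in anti-PSGL-1 against IgG and 179 in the combination against anti-PD-1, and with 2 UMIs of Pdcd1 and Tox 378 in anti-PD-1 and 269 in anti-PSGL-1 against IgG. Of the named ratios, 953 alternative values stayed within the counting interval, 218 moved beyond it, and 13 of the 779 whose ratio was past 1.5-fold as reported changed direction, as did 51 of the 405 whose ratio was not. The 13 are here on the log2 scale: after thinning Ccr7 in anti-PSGL-1 (-1.14), Stmn1 (0.13) and Tigit (-0.74) in the combination against IgG. Without other-lineage cells these were Gbp2 in anti-PSGL-1 (0.17) and Ifitm1 in the combination (0.38) against IgG, Apoe (-0.97) and Gbp2 (1.46) in the combination against anti-PD-1, and Apoe against anti-PSGL-1 (-2.51). Without the highest Scrublet scores they were Gbp2 (1.13) and Apoe (-1.47) in those last 2 comparisons, with 2 UMIs Tigit in anti-PSGL-1 (-0.17), and with equal weight per cell Spp1 in anti-PSGL-1 (0.26) and Gbp2 in the combination against anti-PD-1 (0.17).

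Calls against Gzmk-positive cells numbered 204, with 43 by DESeq2, 362 with no filter, 37 after thinning and 133 to 159 without 1 library. Against Tcf7-positive cells there were 66, with 267 with no filter, 123 without other-lineage cells in 2 libraries, 151 without the highest Scrublet scores and 9 to 62 without 1 library, and the thinned fit was not run because too few cells were left. Against granzyme C to G cells there were 352, with 151 by DESeq2, 595 with no filter, 58 after thinning and 597 without other-lineage cells, both in 2 libraries, and 116 to 463 without 1 library. With no library block, which ignores that both groups come from the same library, the counts were 2, 9 and 97. Of the values of named genes 595 kept their direction and their side of the threshold, called or not, 91 lost a call, 4 gained one and 25 changed direction. Of those 25, Ifitm3 against granzyme C to G cells was called and turned to -0.62 without other-lineage cells. The other 24 were not called. Against Gzmk-positive cells, leaving out 1 library gave a range of -0.026 to 0.032 for Cxcr6, -0.081 to 0.039 for Rgs16, -0.11 to 0.039 for Lag3 and -0.34 to 0.040 for Tigit. Cxcr6 there was 0.00062 with DESeq2 size factors, 0.0043 with no library block, 0.012 without other-lineage cells and 0.0042 without the highest Scrublet scores. Thinning gave 0.18 for Rgs16, 0.016 for Lag3 and 0.0069 for Havcr2. Against Tcf7-positive cells Tigit ranged from -0.073 to 0.72 without 1 library and was -0.23 without other-lineage cells. Against granzyme C to G cells the ranges without 1 library were -0.079 to 0.32 for Ctla4, -0.071 to 0.24 for Cxcr6 and -0.12 to 0.090 for Selplg. Without other-lineage cells Ctla4 was -0.085 and Selplg 0.22 there, and Selplg was 0.31 thinned and 0.022 without the highest Scrublet scores. The cause was not tested.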
